A study of Mus musculus with 16 samples.

Results

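The interleukin 17 and 22 axis was read here through 5 genes: the cytokine genes Il17a and Il22 and the receptor genes Il22ra1, Il22ra2 and Il17rb. They were chosen by gene name, with earlier results of these data known. They are 5 of the 584 genes (5 of 648 assays) on a TaqMan OpenArray inflammation panel, a quantitative PCR card. RNA came from mouse colonic mucosa, in 16 samples of 4 groups with 4 samples each. The Healthy group had PBS into the rectum and PBS by mouth. The DNBS group had DNBS (dinitrobenzene sulfonic acid), which induces colitis by haptenating proteins, into the rectum and PBS by mouth. The DNBS_CEC and DNBS_Nissle groups had DNBS into the rectum and, by mouth, either the agent abbreviated CEC, which the labels do not spell out, or Nissle, the name of a probiotic strain of Escherichia coli. Strain, sex and age of the mice and the doses and times of treatment are not given in the sources used here. The study description speaks of RNA from the mice being pooled, so a sample may be 1 mouse or several, and the p-values measure only the spread between samples, which may be technical.

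IL-17A is made mainly by Th17 cells, gamma-delta T cells and group 3 innate lymphoid cells, and acts on epithelium and stroma, which answer with chemokines for neutrophils. IL-22 comes largely from the same lymphocytes and acts on epithelium through IL-22RA1 paired with IL-10RB, where STAT3 drives antimicrobial and repair genes. IL-22RA2, also called IL-22 binding protein, is a secreted receptor without a membrane anchor that captures IL-22. IL-17RB belongs to the IL-17 receptor family but pairs with IL-17RA to bind IL-25, a cytokine of type 2 immunity.

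A cycle threshold (Ct) is the PCR cycle at which an assay's signal crosses its threshold, so a lower Ct means more RNA. A level is the mean of 13 reference genes in Ct less the gene's own Ct (−ΔCt), so 1 unit is a doubling and larger values stand for more RNA. A Ct above 28 counted as not detected, and 40 stands for no amplification. A gene was tested where at least 3 of 4 samples of both groups had detected it, with limma over all genes and a threshold of 0.05 on the Benjamini-Hochberg adjusted p. Between 528 and 564 assays were detected per sample, with a median Ct of 22.12 to 23.55 and a reference Ct of 18.69 to 20.12. In 194 places (1.87% of the table) a value matched the average of its group's other samples within 2e-06 cycles and was read as filled in. Of these, 61 fell in DNBS_Nissle sample 1 and 57 in Healthy sample 3. The 3 epithelial markers on the panel (Krt8, F2rl1 and Il18, of 11 listed) were detected in all 16 samples. In RNA from whole mucosa, fewer cells of a type and less RNA per cell cannot be told apart.

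The 5 genes split by how they were detected. Il22ra1, Il22ra2 and Il17rb were detected in all 16 samples, while Il17a and Il22 lay around the detection limit. Il17a was detected in 0 of 4 Healthy, 2 of 4 DNBS, 1 of 4 DNBS_CEC and 4 of 4 DNBS_Nissle samples. Il22 was detected in 0 of 4, 3 of 4, 1 of 4 and 2 of 4 in the same order. Among readings counted as undetected, Il17a in Healthy sample 3 and DNBS_CEC sample 1 and Il22 in Healthy sample 4 were filled values. Levels of different genes are not compared with each other, because assays differ in efficiency.

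**Figure D1:**
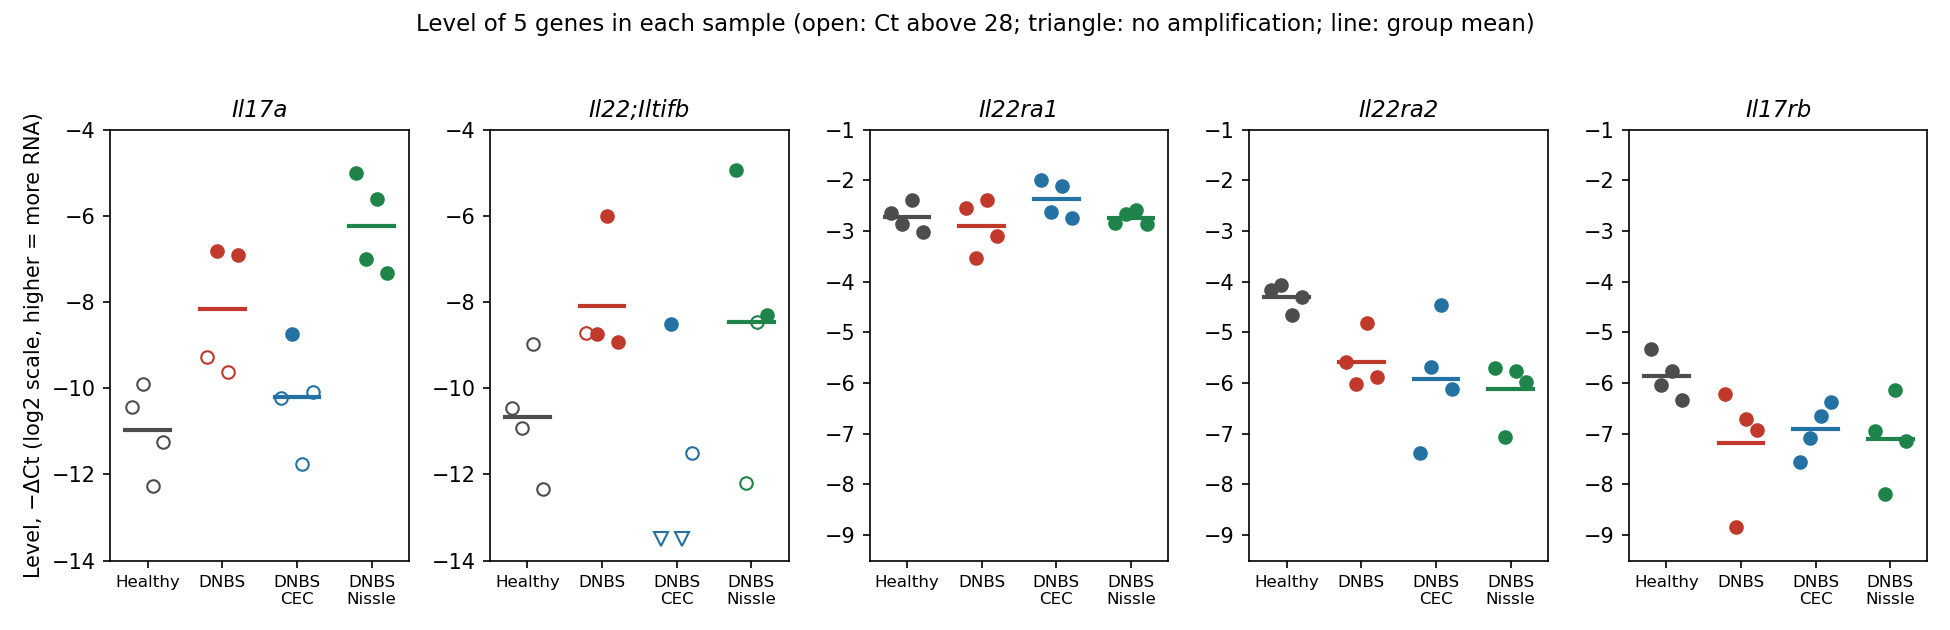
Level of the 5 genes (−ΔCt, log2 scale) in each sample, with 1 panel per gene and 4 samples per group, and a line at each group mean. Open circles are samples with a Ct above 28, and triangles at the lower edge are the 2 DNBS_CEC samples in which Il22 gave no amplification, for which no mean is drawn. The 4 DNBS_Nissle samples lie above all Healthy samples in Il17a and below all of them in Il22ra2.

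Il17a, the signature cytokine of Th17 cells, was highest with Nissle. In Healthy mucosa its Ct was 30.55 in sample 3, 29.23 in sample 4, 31.62 in sample 5 and 30.79 in sample 6, of which the first was a filled value. In DNBS mucosa it was 28.89 in sample 2, 25.83 in sample 3, 29.47 in sample 4 and 25.90 in sample 5. DNBS samples 3 and 5 were within the detection limit, while samples 2 and 4 were not.

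With CEC the Ct of Il17a was 29.51 in sample 1, a filled value, 27.97 in sample 2, 31.49 in sample 6 and 29.09 in sample 8. With Nissle it was 23.97 in sample 1, 25.87 in sample 4, 25.37 in sample 5 and 26.01 in sample 7. All 4 Nissle samples were thus within the detection limit, and none of them overlapped with Healthy or DNBS_CEC samples, while the DNBS samples overlapped with both oral groups. In 8.53% of genes the Nissle samples lay above all Healthy samples.

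The mean level was −6.24 ± 1.10 with Nissle, −8.16 ± 1.50 with DNBS, −10.21 ± 1.24 with CEC and −10.97 ± 1.04 in Healthy mucosa (SD, n = 4 each), readings above 28 included. Because Healthy mucosa fell short of the detection rule, Il17a could not be tested there by the main rule. With every Ct under 40 counted, it was higher in DNBS_Nissle than in Healthy samples by 4.73 ± 0.82 on the log2 scale (± SE), with a limma adjusted p of 0.0197 over 504 genes. In that fit 1.98% of genes were called. With readings above 28 set to 28 and all 568 genes kept, the difference was 2.18 ± 0.50 and the adjusted p 0.0325. In that fit all 4 Healthy values were the limit, so their spread was that of the reference Ct and not of Il17a. With filled Healthy sample 3 taken as undetected, Il17a was at least 4.54-fold above the level that a Ct of 28 stands for in Healthy samples. Its detection in 4 of 4 against 0 of 4 samples gave a two-sided Fisher's exact p of 0.0286, the smallest such groups allow, and an adjusted p of 1 over 568 genes, of which 3.52% showed a contrast of at least 3 detected samples against at most 1.

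The call of Il17a rested on single samples. Leaving out 1 sample at a time gave differences of 4.29 to 5.09 and adjusted p-values of 0.0262 to 0.0595, and the call was kept in 4 of 8 cases. It was lost without DNBS_Nissle sample 1 (adjusted p = 0.0563), DNBS_Nissle sample 5 (0.0546), Healthy sample 3 (0.0510) or Healthy sample 5 (0.0595). With the filled values left out the difference was 4.91, with an adjusted p of 0.0254.

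The other comparisons of Il17a, all with every Ct under 40 counted, did not pass, and in each of their fits 0% of genes were called. DNBS and Healthy levels did not overlap, as for 7.69% of genes with higher levels in that comparison, although the raw Ct of DNBS sample 4 was above that of Healthy sample 4. They differed by 2.81 ± 0.82 (adjusted p = 0.161), which rests on readings past the detection limit in 6 of the 8 samples. With those set to 28 the difference was 0.85 ± 0.50, with an adjusted p of 0.659 when all 568 genes were kept. DNBS_CEC and DNBS_Nissle samples did not overlap either, as for 2.75% of genes, and the level with CEC differed by −3.97 ± 0.82 (adjusted p = 0.114). With undetected CEC samples at the limit and sample 2 at its own reading, Il17a was at least 5.47-fold higher with Nissle. This bound takes CEC sample 1, a filled value, as undetected. Neighbours in the order of the means overlapped, and none of their differences passed. Nissle differed from DNBS by 1.92 ± 0.82 (95% interval 0.18 to 3.67, adjusted p = 0.994), CEC from DNBS by −2.05 ± 0.82 (adjusted p = 0.9998), and CEC from Healthy by 0.76 ± 0.82 (adjusted p = 0.904). With readings above 28 set to 28 these differences were 1.33, −1.12 and −0.27. In the last, every value but that of CEC sample 2 was the limit, so it mostly reflects the reference Ct and not Il17a.

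Il17f encodes the closest relative of IL-17A and lies next to Il17a on chromosome 1, with no other gene between them in RefSeq's table. It was singled out after its values were seen. In Healthy mucosa its Ct ranged from 29.04 to 30.89, in DNBS from 29.96 to 31.12 and with CEC from 28.92 to 31.03. With Nissle it was 24.38 in sample 1, 27.70 in sample 4, 28.02 in sample 5 and 28.20 in sample 7. These 4 readings were lower than all of the other 12, although just 2 of them were within the detection limit.

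With every Ct under 40 counted, the level of Il17f with Nissle differed from that with DNBS alone by 3.05 ± 0.78 (limma adjusted p = 0.724) and from Healthy mucosa by 2.29 ± 0.78 (adjusted p = 0.138), neither of which passed. With readings above 28 set to 28 these differences were 0.69 and 0.47. Groups that did not overlap and were higher made up 0.586% of genes in the first of these comparisons and 8.53% in the second. The samples of DNBS with the lowest Ct of Il17a, samples 3 and 5, had an Il17f Ct of 31.12 and 29.96. DNBS samples 3 and 5 thus gave a reading of Il17a within the limit and none of Il17f, while DNBS_Nissle samples 1 and 4 gave both.

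**Figure D2:**
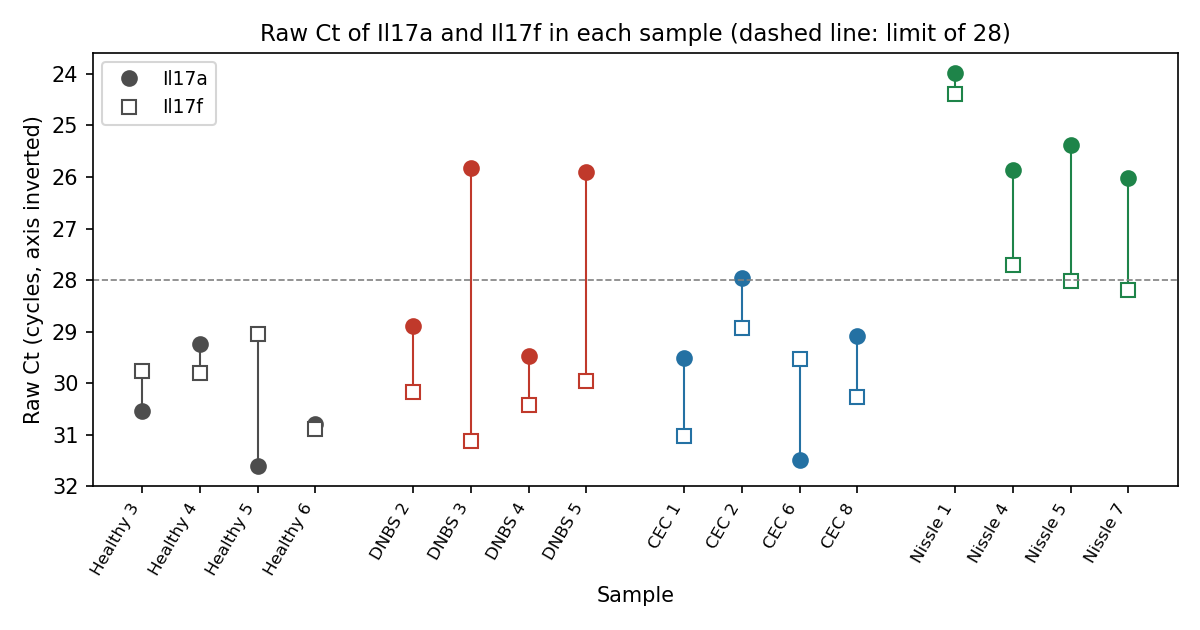
Raw Ct of Il17a (filled circles) and Il17f (open squares) in each of the 16 samples, on an inverted axis in cycles, with a line joining both genes of a sample and a dashed line at the limit of 28. Il17f is under 28 in DNBS_Nissle samples 1 and 4, and readings past the dashed line are not detected, so gaps that end there have no exact size.

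The stretch of 250 bases before the start of Il17a and of Il17f is shown because these neighbouring genes both read highest with Nissle. Both sequences are RefSeq's for build GRCm38.p6, at chr1:20730655-20730904 on the plus strand and chr1:20784271-20784520 on the minus strand. Capitals mark the letters AGGTCA on either strand, the core site of ROR nuclear receptors such as the Th17 factor RORgt.
Il17a: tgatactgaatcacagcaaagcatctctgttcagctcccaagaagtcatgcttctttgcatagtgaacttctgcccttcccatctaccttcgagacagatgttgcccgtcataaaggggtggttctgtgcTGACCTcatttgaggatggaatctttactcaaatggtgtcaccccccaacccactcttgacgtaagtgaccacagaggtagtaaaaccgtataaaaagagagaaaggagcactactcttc
Il17f: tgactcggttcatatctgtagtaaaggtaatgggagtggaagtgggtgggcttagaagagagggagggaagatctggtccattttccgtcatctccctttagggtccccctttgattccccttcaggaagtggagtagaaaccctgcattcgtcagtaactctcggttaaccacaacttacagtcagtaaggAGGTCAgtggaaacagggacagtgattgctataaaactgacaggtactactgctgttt
Each stretch held 1 such match, which begins at −120 relative to the start in Il17a, on the opposite strand, and at −58 in Il17f, on the strand of the gene. The same 6 letters occurred in 14% of 32851 stretches of this length, so the match is a description of the sequence and not evidence of binding. The STAT-type motif TTCNNNGAA, found in 7.02% of stretches, had 0 matches in the stretches of Il17a, Il17f, Il22, Iltifb, Il17rb and Il22ra1. AGGTCA had 1 match before Iltifb and 0 before Il22, Il17rb and Il22ra1.

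Il22, which protects and renews the epithelium, was read in too few samples for a test. The assay is listed as Il22;Iltifb, since the mouse genome holds a copy of Il22 named Iltifb farther along chromosome 10. The 60 bases that match best between the stretches before both genes are shown to explain the compound name, with the letters that differ in capitals. They lie at chr10:118204882-118204941 (plus strand) and chr10:118295039-118295098 (minus strand) in RefSeq's GRCm38.p6.
Il22: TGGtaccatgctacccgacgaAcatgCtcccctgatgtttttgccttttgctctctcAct
Iltifb: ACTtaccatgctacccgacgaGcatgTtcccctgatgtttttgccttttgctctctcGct
These sequences shared 54 of 60 bases (90%). RNA from both genes may be read by the assay, and its readings are given as 1 value.

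In Healthy mucosa the Ct of Il22 was 30.58 in sample 3, 30.26 in sample 4, a filled value, 28.32 in sample 5 and 31.87 in sample 6. In DNBS mucosa it was 28.33 in sample 2, 27.75 in sample 3, 25.86 in sample 4 and 27.93 in sample 5. With CEC samples 1 and 6 gave no amplification, sample 2 read 27.73 and sample 8 read 30.51. With Nissle the Ct was 23.89 in sample 1, 31.07 in sample 4, 28.22 in sample 5 and 27.00 in sample 7. The lowest Ct was thus in DNBS_Nissle sample 1, also the sample with the lowest Ct of Il17a and Il17f, and the Nissle readings overlapped with those of every other group.

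The mean level of Il22 was −8.10 ± 1.40 with DNBS, −8.48 ± 2.97 with Nissle and −10.68 ± 1.39 in Healthy mucosa (SD, n = 4 each). No mean is given for CEC, where 2 samples had no amplification. On the level scale DNBS and Healthy samples did not overlap, as for 7.69% of genes with higher levels. The lowest DNBS level was −8.93 and the highest Healthy level −8.98, but in raw Ct DNBS sample 2 and Healthy sample 5 did overlap. Without the 2 most variable reference genes, Ywhaz and Rplp2, the reference Ct of these samples was 18.60 and 18.76, so their levels overlapped too. With every Ct under 40 counted, DNBS exceeded Healthy by 2.57 ± 2.30 (limma adjusted p = 0.841) and Nissle exceeded Healthy by 2.20 ± 2.30 (adjusted p = 0.694). These errors include the spread of the CEC samples without amplification, because 1 spread is fitted over all groups. With readings above 28 set to 28 these differences were 0.40 and 0.77. Detection in 3 of 4 DNBS and 0 of 4 Healthy samples had a two-sided Fisher's exact p of 0.143, and 2.29% of genes had such a difference in detection. Nissle and DNBS differed by −0.37 ± 2.30, with a 95% interval from −5.30 to 4.56, and the sign turned to 0.37 with readings above 28 set to 28.

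The 3 receptor genes were tested in all 6 comparisons, and none passed at an adjusted p of 0.05. Of all genes tested, limma called 0.219% in DNBS against Healthy, 0% in DNBS_CEC against Healthy, 2.19% in DNBS_Nissle against Healthy, and 0% in each of the 3 comparisons among DNBS groups. At an unadjusted p under 0.05 there were 2 of the 3 receptor genes in DNBS against Healthy (Il22ra2 and Il17rb), 1 with CEC (Il22ra2) and 2 with Nissle (Il22ra2 and Il17rb), all lower. The corresponding shares of all genes, lower ones alone, were 1.97%, 1.09% and 7%. Among the DNBS groups 0 of 3 reached that level, where 1.69% of all genes did for CEC against DNBS, 1.48% for Nissle against DNBS and 4.46% for CEC against Nissle.

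Il22ra1, the signalling receptor of IL-22 on epithelium, had the narrowest range of Ct of the 5 genes. Its Ct was 22.77, 22.20, 21.74 and 22.55 in Healthy samples 3, 4, 5 and 6. It was 22.16, 22.54, 22.24 and 22.09 in DNBS samples 2, 3, 4 and 5. It was 21.27, 21.85, 21.82 and 21.76 in DNBS_CEC samples 1, 2, 6 and 8, and 21.81 (filled), 21.54, 22.34 and 21.56 in DNBS_Nissle samples 1, 4, 5 and 7. All 16 readings lay between 21.27 and 22.77, and on the level scale every pair of groups overlapped.

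The mean level of Il22ra1 was −2.37 ± 0.37 with CEC, −2.73 ± 0.27 in Healthy mucosa, −2.74 ± 0.14 with Nissle and −2.89 ± 0.53 with DNBS (SD, n = 4 each). Against Healthy the difference was −0.16 with DNBS (95% interval −0.82 to 0.50), 0.36 with CEC (−0.30 to 1.02) and −0.01 with Nissle (−0.67 to 0.65). The largest difference, CEC above DNBS by 0.52 ± 0.31, had an adjusted p of 0.993. Over the 6 comparisons the intervals reached from −0.82 to 1.18, and the sign of the Nissle difference turned with the choice of reference genes.

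Il22ra2, the soluble receptor that captures IL-22, had a lower mean in each DNBS-treated group than in Healthy mucosa, without passing the adjusted test. Its Ct was 24.27, 23.40, 24.01 and 23.84 in Healthy samples 3, 4, 5 and 6. It was 25.19, 25.01, 24.67 and 24.88 in DNBS samples 2, 3, 4 and 5. It was 26.66, 24.91, 24.17 and 25.12 in DNBS_CEC samples 1, 2, 6 and 8, and 24.66, 25.92, 25.52 and 24.67 in DNBS_Nissle samples 1, 4, 5 and 7. Of the 12 DNBS-treated samples, all but DNBS_CEC sample 6 had a higher Ct than every Healthy sample.

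The mean level of Il22ra2 was −4.30 ± 0.26 in Healthy mucosa, −5.58 ± 0.53 with DNBS, −5.91 ± 1.21 with CEC and −6.12 ± 0.64 with Nissle (SD, n = 4 each). Against Healthy it differed by −1.28 ± 0.51 with DNBS (2.43-fold lower, adjusted p = 0.349), by −1.61 ± 0.51 with CEC (3.06-fold lower, adjusted p = 0.370) and by −1.83 ± 0.51 with Nissle (3.54-fold lower, adjusted p = 0.0880). DNBS and Nissle samples did not overlap with Healthy samples, and groups that did not overlap and were lower made up 1.75% and 6.35% of genes in these comparisons. The CEC samples overlapped through sample 6.

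The Nissle difference in Il22ra2 crossed the threshold under 4 of 23 other settings, left-out samples included, and its adjusted p reached 0.597 elsewhere. It was −1.96 (adjusted p = 0.0465) with the 3 most stable controls as reference, −1.87 (0.0355) with the global mean, −1.83 (0.0409) with quantile normalization and −1.83 (0.0226) with the fit confined to both groups. With single samples left out it lay between −1.97 and −1.51, with adjusted p-values of 0.0947 to 0.211. Without DNBS_CEC sample 1 the CEC difference was −1.12. Among the DNBS groups the differences were −0.34 ± 0.51 for CEC against DNBS (adjusted p = 0.993), −0.55 ± 0.51 for Nissle against DNBS (0.979) and 0.21 ± 0.51 for CEC against Nissle (0.973).

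Il17rb, the IL-25 receptor chain, had its highest mean in Healthy mucosa. Its Ct was 25.45 (filled), 25.38, 25.11 and 25.87 in Healthy samples 3, 4, 5 and 6. It was 25.83, 27.85, 26.56 and 25.92 in DNBS samples 2, 3, 4 and 5. It was 26.83, 26.30, 26.36 and 25.38 in DNBS_CEC samples 1, 2, 6 and 8, and 25.90, 27.06, 25.90 and 25.84 in DNBS_Nissle samples 1, 4, 5 and 7. DNBS sample 3 had the highest Ct of all, and so the least RNA, and DNBS_Nissle sample 4 was next.

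The mean level of Il17rb was −5.87 ± 0.43 in Healthy mucosa, −6.91 ± 0.51 with CEC, −7.11 ± 0.85 with Nissle and −7.18 ± 1.15 with DNBS (SD, n = 4 each). Against Healthy it differed by −1.31 ± 0.53 with DNBS (2.47-fold lower, adjusted p = 0.349), −1.04 ± 0.53 with CEC (2.06-fold lower, adjusted p = 0.906) and −1.24 ± 0.53 with Nissle (2.36-fold lower, adjusted p = 0.282). CEC samples did not overlap with Healthy samples, where 0.655% of genes did so with lower levels, while DNBS and Nissle samples did overlap with them. Without DNBS sample 3 the DNBS difference was −0.75. The 3 DNBS groups differed from each other by at most 0.26 ± 0.53, between CEC and DNBS (adjusted p = 0.996).

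**Figure D3:**
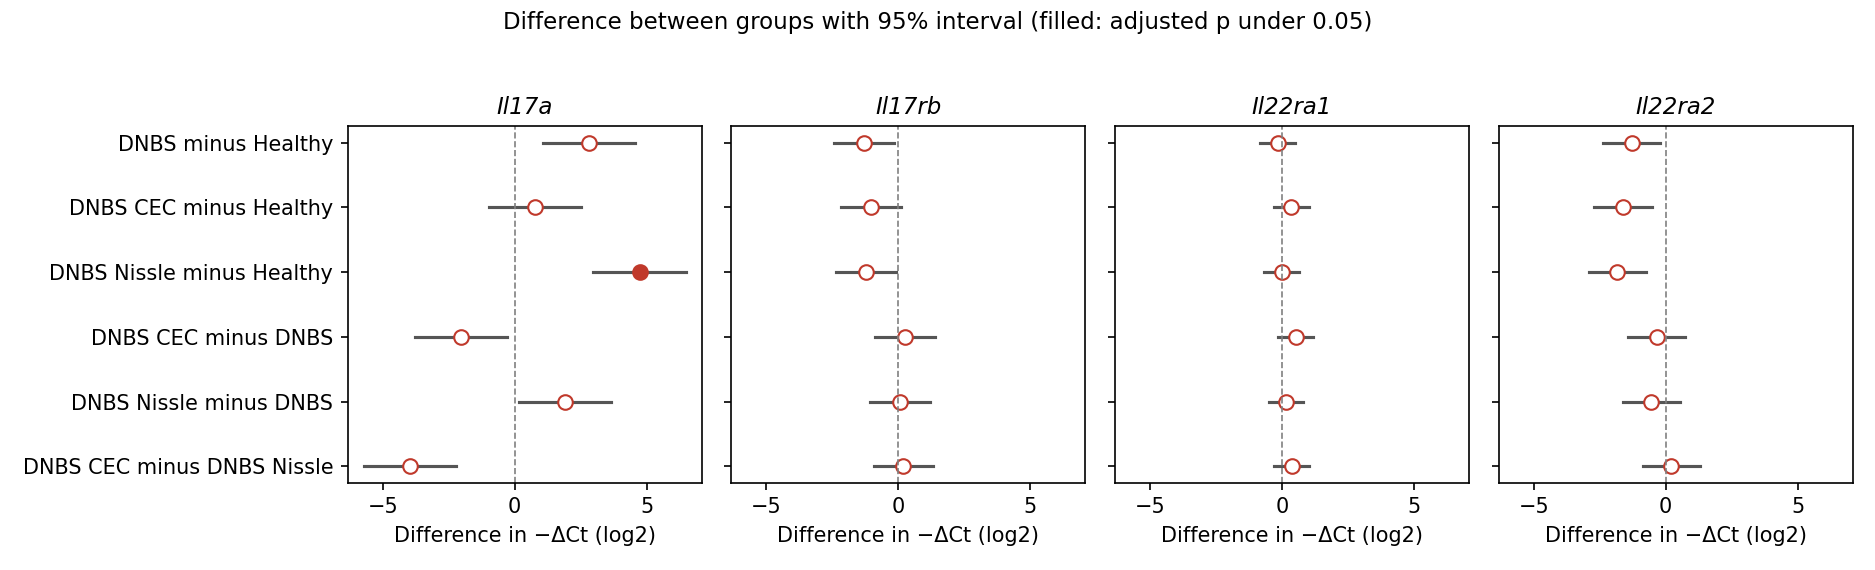
Difference in level (−ΔCt, log2 scale) between groups for Il17a and the 3 receptor genes, with 95% intervals from limma, in the 6 comparisons. Il17a was fitted with every Ct under 40 counted and the receptors with the detection rule; filled points have an adjusted p under 0.05, which holds for Il17a in DNBS_Nissle against Healthy alone.

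Because reference genes cancel when 2 genes of the same sample are subtracted, the gaps in Ct between receptor genes were also compared, a measure chosen after the levels were seen. Il22ra2 Ct minus Il22ra1 Ct was 1.50, 1.20, 2.27 and 1.29 cycles in Healthy samples 3, 4, 5 and 6. It was 3.03, 2.47, 2.43 and 2.79 in DNBS samples 2, 3, 4 and 5. It was 5.39, 3.06, 2.35 and 3.37 in DNBS_CEC samples 1, 2, 6 and 8, and 2.85, 4.39, 3.17 and 3.12 in DNBS_Nissle samples 1, 4, 5 and 7. The widest Healthy gap, 2.27, was narrower than the narrowest gap of the 12 DNBS-treated samples, 2.35.

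The mean gap was 1.57 ± 0.49 in Healthy mucosa, 2.68 ± 0.28 with DNBS, 3.54 ± 1.30 with CEC and 3.38 ± 0.69 with Nissle (SD, n = 4 each). The soluble receptor was thus lower relative to the signalling receptor in every DNBS-treated sample than in any Healthy sample. Il17rb Ct minus Il22ra1 Ct split the samples the same way, at 2.68 to 3.37 cycles in Healthy mucosa against 3.67 to 5.30 with DNBS, 3.63 to 5.55 with CEC and 3.56 to 5.53 with Nissle. Filled values enter these gaps through Il22ra1 in DNBS_Nissle sample 1 and Il17rb in Healthy sample 3. Relative to Il22ra1, 2.85% of other genes were lower without overlap in DNBS against Healthy, 3.06% with CEC and 6.14% with Nissle. Il17rb Ct minus Il22ra2 Ct, in contrast, overlapped between all groups, from 1.10 to 2.03 in Healthy mucosa and from 0.17 to 2.83 in the others.

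**Figure D4:**
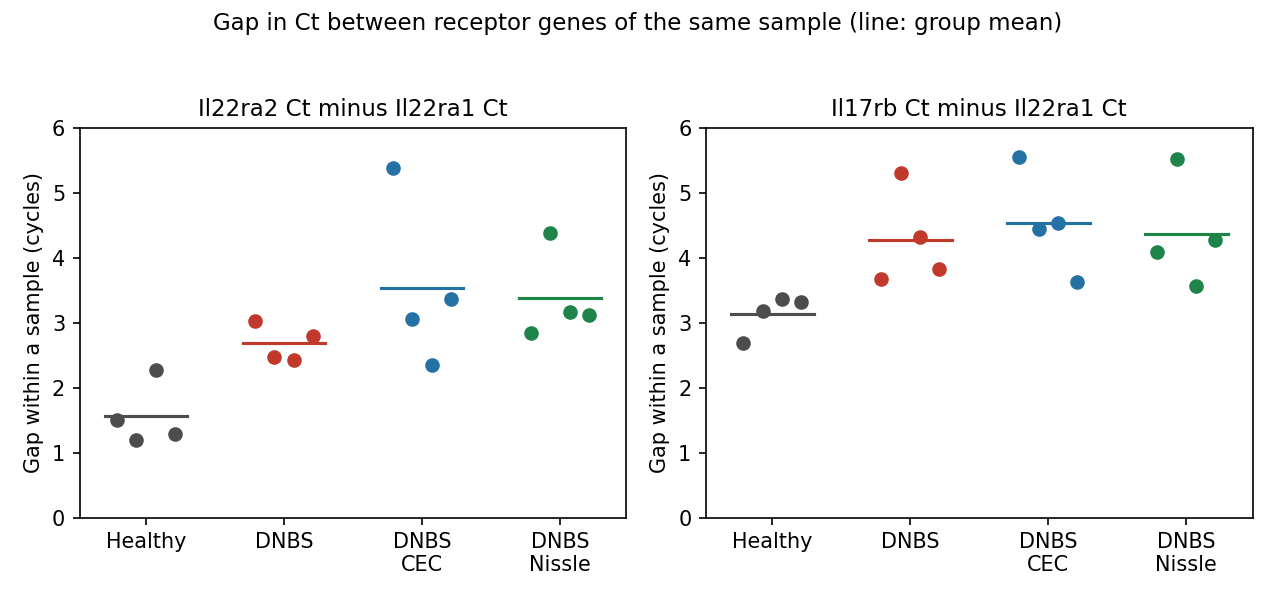
Gap in Ct (cycles) between 2 receptor genes of the same sample, Il22ra2 minus Il22ra1 and Il17rb minus Il22ra1, in 4 samples per group with a line at the group mean. In both panels all 12 DNBS-treated samples lie above the 4 Healthy samples, from 2.35 and 3.56 cycles upwards. Il22ra1 of DNBS_Nissle sample 1 and Il17rb of Healthy sample 3 are filled values.

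Among 411 genes detected in all 16 samples, those most like each receptor gene over the 16 samples were ranked by Pearson's r of the levels, which share a reference within a sample. Il22ra2 was most like Il15 (r = 0.90, Spearman's rho = 0.91), a cytokine for lymphocytes, and Hdac5 (r = 0.84, rho = 0.78), a histone deacetylase. Il17rb was most like Sectm1b (r = 0.84, rho = 0.86), Casp1 (r = 0.82, rho = 0.73), the protease that activates IL-1 beta, and Cftr (r = 0.80, rho = 0.75), the epithelial chloride channel. Il22ra1 was most like Nfrkb (r = 0.87, rho = 0.86), Nfx1 (r = 0.79, rho = 0.89) and Ik (r = 0.77, rho = 0.89). Over all 411 genes the median r was 0.21 for Il22ra2, 0.19 for Il17rb and 0.22 for Il22ra1.

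No relative of these genes on the panel passed the test. Of 11 listed ligands and receptors of the IL-17 family 6 were on the panel and 3 were tested, with 0 called in any comparison. Il17ra, the receptor chain shared by IL-17A and IL-25, differed from Healthy by 0.39 ± 0.33 with DNBS, 0.43 ± 0.33 with CEC and 0.16 ± 0.33 with Nissle (limma adjusted p = 0.848, 0.911 and 0.885). Il17d, a family cytokine, differed by 0.01 ± 0.81, −0.67 ± 0.81 and −1.10 ± 0.81 (adjusted p = 0.998, 0.941 and 0.542). Il17c was detected in 1 DNBS_CEC and 1 DNBS_Nissle sample.

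Of 12 listed genes around IL-22 in the IL-10 family, 9 were on the panel and 4 were tested, with 0 called in any comparison. They include Il10rb, the partner chain of IL-22RA1, named here after its values were seen, whose level averaged 0.08 in Healthy mucosa, 0.13 with DNBS, 0.20 with CEC and 0.12 with Nissle. Il10ra, the IL-10 receptor chain, differed from Healthy by 0.36 ± 0.40, 0.33 ± 0.40 and 0.39 ± 0.40 in DNBS, CEC and Nissle (adjusted p = 0.882, 0.941 and 0.695). Il10, Il20 and Il24 were detected in 0 of 16 samples, and Il19 in 1 DNBS and 1 DNBS_Nissle sample.

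Upstream signals that drive type 3 lymphocytes were read by 17 of 20 listed genes, of which 9 were tested against Healthy. In that list Il1b, a cytokine that stimulates IL-17-producing cells, was higher in DNBS_Nissle than Healthy samples by 4.76 ± 1.04 on the log2 scale. This 27.1-fold difference (limma adjusted p = 0.0225) was the 1 call of the list, in a comparison where 2.19% of all genes were called. Il1b differed from Healthy by 3.71 ± 1.04 with DNBS (adjusted p = 0.116) and 1.87 ± 1.04 with CEC (adjusted p = 0.911). Between DNBS_Nissle and DNBS it differed by 1.05 ± 1.04 (adjusted p = 0.979). The list's median difference was 0.12 with DNBS, 0.09 with CEC and 0.04 with Nissle, against medians over all genes of 0.12, 0.07 and −0.10. Il23a, the IL-23 subunit, was detected in 0 of 4 Healthy samples and 2 of 4 samples of each DNBS group, and Il6 in 1 of 4 Healthy and all 12 DNBS-treated samples. Tgfb1 differed from Healthy by 0.57 ± 0.43, 0.25 ± 0.43 and 0.30 ± 0.43 and Il6ra by 0.54 ± 0.38, 0.37 ± 0.38 and 0.01 ± 0.38 in DNBS, CEC and Nissle, with no call.

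Ccr6, the homing receptor of type 3 lymphocytes, and its ligand Ccl20, itself induced by IL-17, were not called in any comparison. Ccr6 differed from Healthy by −0.20 ± 0.71 with DNBS, −0.72 ± 0.71 with CEC and −1.73 ± 0.71 with Nissle (limma adjusted p = 0.970, 0.914 and 0.240). Ccl20 differed by −0.74 ± 0.72, 0.31 ± 0.72 and −1.05 ± 0.72 (adjusted p = 0.853, 0.960 and 0.522). Of the 18 listed signalling genes shared by the receptors, 9 were on the panel and tested and 0 were called in any comparison. Their median difference from Healthy was 0.16 with DNBS, 0.19 with CEC and 0.00 with Nissle. Stat3, the main transducer of IL-22, differed by 0.33 ± 0.36, 0.44 ± 0.36 and 0.26 ± 0.36, and Nfkb1 and Jun were likewise not called.

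Genes that IL-17 and IL-22 are known to induce in epithelium and stroma had the largest median difference from Healthy of the lists examined. Several of them were known to be high here when the list was drawn up, so this rank is no independent evidence. Of 24 listed genes 18 were on the panel. In DNBS against Healthy 12 of 14 tested genes were higher with a median of 2.10. With CEC 13 of 13 were higher with a median of 1.39, and with Nissle 13 of 14 with a median of 2.80. Of all genes tested, 273 of 457, 262 of 458 and 191 of 457 were higher in the same order. Limma called 1 gene of the list with DNBS (Nos2), 0 with CEC and 4 with Nissle (Cxcl5, Nos2, S100a8 and S100a9), all higher. The shares of all genes called were 0.219%, 0% and 2.19%. The DNBS call was lost with the 3 most stable controls, the global mean, quantile normalization, every Ct under 40 or the values as deposited, and without any 1 of DNBS samples 2, 3 and 5 and Healthy samples 3, 4 and 6. All calls with Nissle, here and of Il1b, were lost without Healthy sample 3 and with the replicate number as a block. At an unadjusted p under 0.05 there were 9, 5 and 8, where 9.85%, 5.24% and 16% of all genes were.

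Nos2, the inducible nitric oxide synthase, was 14.2-fold higher with DNBS (3.83 ± 0.73, adjusted p = 0.0378) and 8.76-fold higher with Nissle (3.13 ± 0.73, adjusted p = 0.0328). With CEC it was 4.96-fold higher (2.31 ± 0.73, limma adjusted p = 0.370), which did not pass. S100a9, a calprotectin subunit, differed from Healthy by 7.48 ± 1.44 with Nissle (adjusted p = 0.0124), 6.23 ± 1.44 with DNBS (0.0720) and 4.32 ± 1.44 with CEC (0.395). Ltf, the iron-binding lactoferrin, differed by 4.32 ± 0.97, 2.65 ± 0.97 and 3.45 ± 0.97 with DNBS, CEC and Nissle (adjusted p = 0.0720, 0.564 and 0.0880). Reg3g, the antimicrobial lectin that IL-22 induces in epithelium, was named after its values were seen. Its level averaged 3.19 in Healthy mucosa, 4.89 with DNBS, 4.45 with CEC and 3.77 with Nissle and was not called. S100a8, S100a9 and Ltf are also carried by neutrophils. Several genes of this list were known to be high here when it was drawn up, so its direction is no independent evidence. Between DNBS groups 0 of its genes were called. The median difference was −0.92 for CEC against DNBS, 0.71 for Nissle against DNBS and −1.12 for CEC against Nissle.

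**Figure D5:**
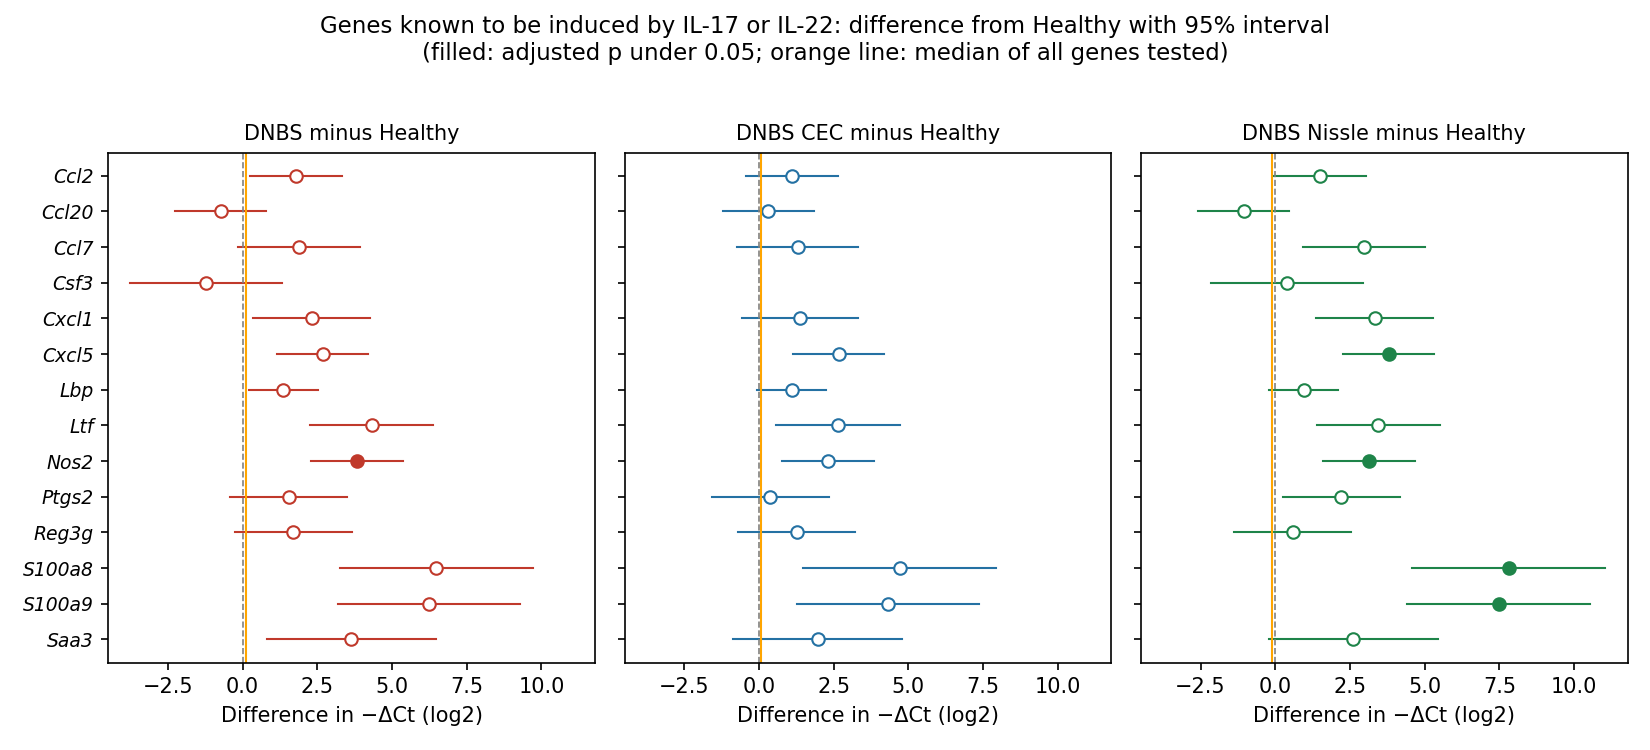
Difference from Healthy in level (−ΔCt, log2 scale) of the tested genes known to be induced by IL-17 or IL-22, with 95% intervals from limma, in the DNBS, DNBS_CEC and DNBS_Nissle groups. Filled points have an adjusted p under 0.05 (Nos2 with DNBS; Cxcl5, Nos2, S100a8 and S100a9 with Nissle), and the orange line is the median of all genes tested, between −0.10 and 0.12.

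Genes of the type 2 arm, in which IL-17RB serves as receptor for IL-25, were all 15 on the panel, and 10 were tested with 0 called in any comparison. Il4, Il5, Il9 and Il13 were detected in 0 of 16 samples. Il33, an epithelial and stromal alarmin, differed from Healthy by 1.12 ± 0.39 with DNBS, 0.38 ± 0.39 with CEC and 0.84 ± 0.39 with Nissle (limma adjusted p = 0.343, 0.918 and 0.309). Il4ra differed by 2.37 ± 0.98, 2.38 ± 0.98 and 2.57 ± 0.98, and Il13ra2 by 1.36 ± 0.56, 0.34 ± 0.56 and 0.71 ± 0.56, with no call. Il4ra was detected in 3 of 4 Healthy samples and in 4 of 4 of each DNBS group. Its undetected Healthy value entered at the detection limit, a level that averaged −8.42 in Healthy samples, and lowered the Healthy mean to −3.46. Much of each Il4ra difference thus rests on that Healthy sample, although the groups did not overlap. The list's median difference was 0.35 with DNBS, 0.19 with CEC and 0.77 with Nissle.

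Markers of other cells moved with some of these results. The summed level of 7 granulocyte and monocyte markers (Itgam, Itgb2, S100a8, S100a9, Il8rb, Cd14 and Ccr1, of 8 listed) lay between −1.30 and −0.72 on the log2 scale in Healthy samples, 0.33 and 5.69 with DNBS, −1.24 and 3.08 with CEC and 2.29 and 3.73 with Nissle, and 3 of the 7 were called higher with Nissle. Of all genes, 2.19% were called in DNBS_Nissle against Healthy. S100a8 and S100a9 are also in the list of induced genes. The mean of this sum, in which the markers with the highest levels weigh most, ordered the groups as Il17a did. The median difference of the 7 single markers from Healthy did not: it was 2.07 with DNBS, 1.03 with CEC and 1.13 with Nissle. The 3 T cell markers on the panel (Cd4, Cd28 and Icos, of 9 listed) summed to −4.76 to −3.88 in Healthy samples, −5.94 to −3.62 with DNBS, −5.46 to −3.16 with CEC and −5.79 to −4.53 with Nissle, with 0 of 3 called in any comparison with Healthy. The mean of the T cell sum was lowest in the Nissle group, which had the highest level of Il17a. The 6 adipocyte markers summed to 0.80 to 3.06 in Healthy samples, 1.36 to 2.58 with DNBS, −0.13 to 2.06 with CEC and 0.26 to 1.05 with Nissle. The 3 epithelial markers summed to 3.26 to 4.68 in Healthy samples, 3.24 to 4.69 with DNBS, 3.69 to 4.90 with CEC and 2.34 to 4.39 with Nissle. The 3 macrophage and dendritic cell markers (Cd86, Cd80 and Ccr7, of 7 listed), which include cells known to make IL-22RA2, summed to −4.91 to −4.13, −4.73 to −3.47, −5.20 to −4.24 and −4.89 to −3.76 in the same order. Both B cell markers (of 6 listed) were tested against Healthy with 0 called. Of the 2 endothelial markers on the panel (Selp and Sele, of 8 listed), which are also induced on activated vessels, 1 was tested and called higher with Nissle by 3.26. No marker on these lists was undetected in all samples, and the part of cell content in the levels of the 5 genes was not tested.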

How the data were processed

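Total RNA of colonic mucosa was measured with TaqMan OpenArray cards, per the labels' protocols. The authors deposited cycle thresholds (Ct, a unit of its own with no normalization), and the software and threshold settings behind them are not given in the sources used here. Groups came from the labelled intrarectal and oral treatments.

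The mean Ct of 13 reference genes was taken per sample, from 19 assays. They included Ywhaz, Tbp, Rplp2, Ppia, Polr2a and Pgk1 and, besides, Ipo8, Hprt1, Gusb, Gapdh and Actb. Within groups the SD of Ct was 3.47 cycles for Ywhaz and 1.01 for Rplp2, against 0.27 to 0.57 for the others. The Ct of Ywhaz ranged from 17.90 in DNBS_Nissle sample 4 to 26.83 in Healthy sample 3, which shifts the reference between samples. Level was this mean minus the Ct of the gene. For tests, values above 28 were set to 28. Each gene's level was the mean of its assays detected in the most samples (50 genes had several). Limma 3.58.1 in R 4.3.3 (lmFit, eBayes) was fitted over all 16 samples with 12 residual degrees of freedom. P-values were adjusted per comparison by Benjamini-Hochberg. The script was tested on simulated data.

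Of each gene list, the 3 tested genes with the smallest p in DNBS against Healthy were named, and the 3 genes most like each receptor. Some reference genes and 1 gene of the last kind are not reported here. Members and lists were chosen with earlier results of these data known. Alternatives were other reference genes, global mean and quantile normalization, other treatment of high Ct, filled or short-decimal values, no filter, other fits and left-out samples. Every Ct under 40 combined with other choices, the Ct gaps and Il17f were added after seeing the data. No batch is given in the labels. Depth has no counterpart in PCR, and 4 samples a group limit the precision.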

Additional observations from a re-analysis of the deposited data

Results flagged for a closer look

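The level of Il22 in DNBS sample 4 was −6.014, while the other 3 DNBS samples lay between −8.929 and −8.726. The distance to the nearest of them was 0.93 of the range of the group, above the critical value of Dixon's test for 4 samples. Of 20 groups checked, this was the 1 that stood out, and chance alone gives this in about 5% of groups. The same sample was not high in Il17a, where its Ct was 29.47.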

How the results depend on the processing

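The number of genes called in DNBS against Healthy, 1, was 3 with Gapdh alone as reference, 7 with only the groups compared, and 0 with the 3 most stable controls, the global mean, quantile normalization, every Ct under 40 or the values as deposited. With single samples left out it was 0 to 6 (6 without DNBS sample 4). In DNBS_CEC against Healthy it was 0 to 1 (1 without DNBS_CEC sample 8). In DNBS_Nissle against Healthy, 10, it was 20 with only the groups compared, 14 with no filter and 0 to 11 with samples left out (0 without Healthy sample 3, 4 without DNBS_Nissle sample 1 or Healthy sample 4, and 6 without DNBS_Nissle sample 5 or Healthy sample 5 or 6).

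With every Ct under 40 in place of values set to 28, the Il17a difference moved from 0.85 to 2.81 (DNBS against Healthy), −0.27 to 0.76 (DNBS_CEC against Healthy), 2.18 to 4.73 (DNBS_Nissle against Healthy), −1.12 to −2.05 (DNBS_CEC against DNBS) and −2.45 to −3.97 (DNBS_CEC against DNBS_Nissle). For Il22 it moved from 0.40 to 2.57 (DNBS against Healthy) and 0.77 to 2.20 (DNBS_Nissle against Healthy), and from 0.37 to −0.37 (DNBS_Nissle against DNBS). The Il17a value of −0.27 was set by the limit in every sample but DNBS_CEC sample 2, and so mostly by the reference Ct. Il22ra2 in DNBS_Nissle against Healthy passed the threshold at −1.96, −1.87, −1.83 and −1.83 under the settings named above.

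Differences near 0 changed sign. For Il22ra1 in DNBS_Nissle against Healthy they were 0.00604 without Ywhaz and Rplp2, 0.17 with Gapdh and 0.025 without filled values. Il22ra2 was 0.13 with quantile normalization in DNBS_CEC against DNBS. In DNBS_CEC against DNBS_Nissle, Il22ra2 was −0.039, −0.14 and −0.00303 and Il17rb −0.057, −0.15 and −0.021 without Ywhaz and Rplp2, with Gapdh and with the 3 stable controls. With samples left out, Il22ra1 was −0.33 to 0.0531 (DNBS against Healthy), −0.10 to 0.10 (DNBS_Nissle against Healthy) and −0.0633 to 0.32 (DNBS_Nissle against DNBS). Il22ra2 was −0.82 to 0.16 (DNBS_CEC against DNBS) and −0.28 to 0.70 (DNBS_CEC against DNBS_Nissle). Il17rb was −0.29 to 0.58, −0.49 to 0.43 and −0.17 to 0.51 in the 3 comparisons among DNBS groups. Il22 with every Ct under 40 was −1.55 to 0.87 (DNBS_Nissle against DNBS), and Il17a 4.29 to 5.09 (DNBS_Nissle against Healthy). Of 547 values compared, 516 kept their direction. The cause of these shifts was not tested.

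Of 10 pairs of samples with the same replicate number 4 had a correlation over 0.1, and the 10 ranged from −0.474 to 0.305. So few pairs cannot settle whether the numbers pair the samples. With the number as a block the count was 2 in DNBS against Healthy and 0 in DNBS_Nissle against Healthy, and Il17a in the latter was 4.99 (limma adjusted p = 0.157). Il22ra2 and Il17rb were −0.0321 and −0.16 in DNBS_CEC against DNBS_Nissle, Il17rb −0.0825 in DNBS_CEC against DNBS, and Il22 0.72 in DNBS_Nissle against DNBS.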
